A study of Mus musculus with 16 samples.

Results

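Accessible chromatin that overlapped exons away from promoters was examined in pancreatic islets, the hormone-secreting clusters of the pancreas, from the 8 founder strains of the Diversity Outbred (DO) mouse population. Accessibility was measured by ATAC-seq, in which the Tn5 transposase cuts and tags open DNA and the density of tagged fragments forms peaks. The overlapping peaks of the 16 sample lists were merged, and a region was kept when it was called in all 16 samples, was under 5 kb wide, lay over 3 kb from every GENCODE transcription start site (TSS) and overlapped an exon of a protein-coding gene. On chromosomes 1 to 19 these criteria left 1729 regions of 347712 merged regions, and of 40940 that were called in every sample. The regions were therefore selected on being called everywhere, and their presence in every strain is a property of the selection and not a result.

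Each strain was represented by 1 female and 1 male sample, each made from 50 islets. The labels name no treatment, age or batch. The 5 classical inbred strains were 129 (129S1_SvImJ), AJ (A_J), B6 (C57BL/6J), NOD (NOD_ShiLtJ) and NZO (NZO_HlLtJ), and the 3 wild-derived strains were CAST (CAST_EiJ), PWK (PWK_PhJ) and WSB (WSB_EiJ). No source used here says whether islets of several animals were pooled, so the p-values below measure the spread between these samples, which may be technical. The lists held 80392 to 173735 peaks per sample, and the median summit signal over the 42427 regions called in all samples, chromosome X included, was lowest in the PWK male (32) and highest in the CAST male (136). Read totals were not used here, so signals were divided by the median of their own sample over those 42427 regions, and a scaled signal of 1.00 is the level of the typical shared region. Differences between strains were tested with limma's moderated F test on log2(signal + 1), and a region was called at a Benjamini-Hochberg adjusted p under 0.05 over all 42427 regions.

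The islet identity of the samples was checked at the promoters of marker genes. All 7 beta cell markers had a peak within 3 kb of a start site in all 16 samples, as did 4 of 6 markers of alpha, delta and PP cells, with Sst and Ppy called in at most 1 and 2 samples. None of 7 acinar, 4 endothelial and 5 leukocyte markers was called in all 16 samples, although Ptf1a (acinar) and Ptprc (leukocyte) were each called in 14 and 3 endothelial genes in 11, and 1 of 4 duct markers, Cftr, was called in 16. The part of other cell types in the results below was not tested, and in whole islets a smaller share of a cell type and a less open site per cell cannot be told apart.

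Exons carry the sequence that is kept in mature RNA, and most open chromatin lies outside them, at promoters and at enhancers between and within genes. Enhancers can nevertheless run across an exon or start in the intron beside it, CTCF, the factor that anchors chromatin loops, binds at some exons, and the untranslated last exon of a gene can hold regulatory sites. A region that merely touches an exon and a region centred on it are different things, and the regions here were first separated on that point.

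Most of these regions were not centred on an exon. The summit, taken as the median position of the highest signal over the samples, lay in an exon of a protein-coding gene in 657 of 1729 regions (38.0%), of which 264 were in coding sequence, 288 in a 3′ UTR, 9 in a 5′ UTR and 96 in other exons. It lay in an intron in 993 regions (57.4%) and outside genes in 77. The exon made up a median of 19.2% of the region, 254 regions were exon throughout and in 516 the exon took under 10% of the width. The label of exonic region therefore holds for the overlap, and for the majority the point of greatest accessibility was intronic.

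By the exon they touched, 1293 regions overlapped coding sequence, 329 only a UTR and 107 only an exon of a noncoding transcript of a coding gene. The exon was internal in 999 regions and the last one in 716, while a first exon was met in 1 region, a number that the distance limit keeps low. The summit fell in the last 10% of the host gene or past its end in 573 regions (33.1%). The 1729 regions fell in 1453 host genes, the host being the gene whose exon was overlapped by the most bases, of which 191 held 2 regions and 34 held 3 or more. Several host genes were given for 21 regions, the extreme being a region at the shared last exon of the clustered protocadherins, assigned to Pcdhga1, which 21 genes share.

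Sequence windows of 300 bases centred on the summit show this arrangement directly. They are from the RefSeq copy of the GRCm38 reference (the mm10 build, of the B6 strain), are printed along the strand of the host gene and have coding bases in capitals. The set covers regions that stand out below for a wild-derived or single-strain pattern and have coding bases in their window, with the Samd12 region added as a summit without coding sequence. The windows are chr8:64611424-64611723 at Cpe, chr10:41894085-41894384 at Sesn1, chr16:58475635-58475934 at St3gal6, chr13:53354271-53354570 at Sptlc1, chr1:54743161-54743460 at Ankrd44, chr3:119314769-119315068 at Dpyd and chr15:53719097-53719396 at Samd12.
Cpe (minus strand): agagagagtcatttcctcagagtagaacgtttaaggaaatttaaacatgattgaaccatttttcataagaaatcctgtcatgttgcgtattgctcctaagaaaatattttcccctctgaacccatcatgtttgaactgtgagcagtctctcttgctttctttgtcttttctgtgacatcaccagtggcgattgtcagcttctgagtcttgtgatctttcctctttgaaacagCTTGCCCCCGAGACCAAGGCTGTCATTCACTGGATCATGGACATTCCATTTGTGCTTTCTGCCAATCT
Sesn1 (plus strand): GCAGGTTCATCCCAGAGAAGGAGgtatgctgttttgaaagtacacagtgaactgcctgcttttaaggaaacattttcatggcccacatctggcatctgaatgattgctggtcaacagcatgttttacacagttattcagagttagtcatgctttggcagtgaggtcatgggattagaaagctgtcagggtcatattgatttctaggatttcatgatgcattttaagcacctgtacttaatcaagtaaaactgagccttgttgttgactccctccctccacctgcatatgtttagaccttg
St3gal6 (minus strand): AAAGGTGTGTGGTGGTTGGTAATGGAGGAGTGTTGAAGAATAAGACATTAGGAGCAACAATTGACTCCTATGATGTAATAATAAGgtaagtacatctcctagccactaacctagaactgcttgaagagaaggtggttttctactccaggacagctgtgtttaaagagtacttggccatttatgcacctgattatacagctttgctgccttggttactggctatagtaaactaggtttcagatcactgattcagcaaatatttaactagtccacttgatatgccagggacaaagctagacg
Sptlc1 (minus strand): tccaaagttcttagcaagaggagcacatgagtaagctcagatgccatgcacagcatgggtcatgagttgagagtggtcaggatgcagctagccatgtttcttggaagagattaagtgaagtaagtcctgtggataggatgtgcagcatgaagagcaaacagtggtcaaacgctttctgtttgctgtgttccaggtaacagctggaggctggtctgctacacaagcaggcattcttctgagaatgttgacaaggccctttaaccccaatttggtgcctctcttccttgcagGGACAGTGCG
Ankrd44 (minus strand): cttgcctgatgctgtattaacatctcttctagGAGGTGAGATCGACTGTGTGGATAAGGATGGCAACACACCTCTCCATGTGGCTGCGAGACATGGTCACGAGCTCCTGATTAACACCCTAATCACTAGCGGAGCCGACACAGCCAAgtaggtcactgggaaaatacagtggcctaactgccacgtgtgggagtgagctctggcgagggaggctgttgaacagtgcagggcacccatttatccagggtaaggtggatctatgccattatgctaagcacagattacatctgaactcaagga
Dpyd (plus strand): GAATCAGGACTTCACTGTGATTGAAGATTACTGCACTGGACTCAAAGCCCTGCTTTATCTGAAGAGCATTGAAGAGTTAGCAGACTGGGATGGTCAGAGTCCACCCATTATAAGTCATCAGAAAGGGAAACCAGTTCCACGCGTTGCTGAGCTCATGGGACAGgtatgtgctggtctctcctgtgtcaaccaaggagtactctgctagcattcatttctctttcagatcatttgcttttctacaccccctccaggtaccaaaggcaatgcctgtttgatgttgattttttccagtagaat
Samd12 (minus strand): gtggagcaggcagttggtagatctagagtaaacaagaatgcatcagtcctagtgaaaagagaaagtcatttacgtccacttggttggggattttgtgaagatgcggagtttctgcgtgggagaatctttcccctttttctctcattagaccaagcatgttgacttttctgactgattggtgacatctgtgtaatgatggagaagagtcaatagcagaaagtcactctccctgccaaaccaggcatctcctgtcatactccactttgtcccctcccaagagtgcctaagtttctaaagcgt
In Dpyd and Ankrd44 the coding exon filled 163 and 115 of the 300 bases, while in Cpe, St3gal6, Sesn1 and Sptlc1 it took 68, 85, 23 and 10 bases at an edge of the window. The Samd12 window held none, its coding exon of 130 bases lying elsewhere in the region.

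Exonic regions were moderately accessible. Their median level, the mean over samples of log2(signal + 1) centred on each sample's median, was −0.21 (quartiles −0.77 and 0.54), between the −0.41 of 11022 intronic and the 0.45 of 15914 promoter regions selected with the same limits on width and chromosome, and beside −0.28 in 10941 intergenic regions. Exonic regions were also wider than intronic regions, with medians of 1085 and 942 bases. Regions with the exon taking under 10% of their width had a median level of −0.02, against −0.39 for regions that were exon throughout, and were 1599 against 723 bases wide at the median. Within a strain, the centred values of the female and male samples correlated across the 1729 regions at r = 0.81 to 0.97, a description over regions that share 2 libraries. Samples of different strains correlated at 0.60 to 0.89 (mean 0.75, against 0.90 within strains), so the ranges overlapped.

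The highest level was measured in a region past the end of Wls, a gene that encodes a carrier needed for Wnt ligand secretion (chr3:159936600-159939680, exon 13 of 13, with the summit past the end of the gene). Its scaled signals, female then male, were 26.8 and 17.4 in 129, 33.3 and 38.8 in AJ, 20.9 and 18.2 in B6, 9.70 and 8.35 in CAST, 31.9 and 23.4 in NOD, 22.2 and 26.3 in NZO, 23.9 and 33.1 in PWK and 15.7 and 16.9 in WSB. Every sample was thus far above the typical shared region, CAST was lowest with both samples, and the level ranked 33 among all 42427 regions. The adjusted p for strain was 0.00373. Repeat sequence made up 89.3% of the 300-base window at the Wls summit, as masked in the reference genome, and 32 of its bases were unknown. Such windows were uncommon, with 36 of 1729 exonic windows (2.08%) at least 50% repeat, against 2.14% of all shared regions. The part of repeat sequence in the Wls signal was not tested.

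The next regions by level were at Fkbp9, an endoplasmic reticulum prolyl isomerase (chr6:56864818-56868999), Cdk14, a cyclin-dependent kinase (chr5:5299709-5301718), Lars2, the mitochondrial leucyl-tRNA synthetase (chr9:123461785-123462205), and Dgkb, a diacylglycerol kinase (chr12:38123476-38126796). Over the 16 samples Fkbp9 ran from 7.73 to 17.8 with a median of 14.2, and Cdk14 from 8.58 to 16 with a median of 12.0. Both summits were intronic and neither region was called for strain (adjusted p = 0.393 and 0.142). Lars2 differed in form, a narrow region of 421 bases lying wholly in the 3′ UTR. Its signal ran from 7.29 to 29.6 with a median of 9.47, the highest value being the 129 female while the 129 male had 9.65, and the region was not called (adjusted p = 0.317). At Dgkb the AJ samples had 17.2 and 18.7 and the CAST samples 4.87 and 7.62, and the adjusted p was 0.0202. That call was lost when either AJ sample or the CAST female was left out.

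**Figure D1:**
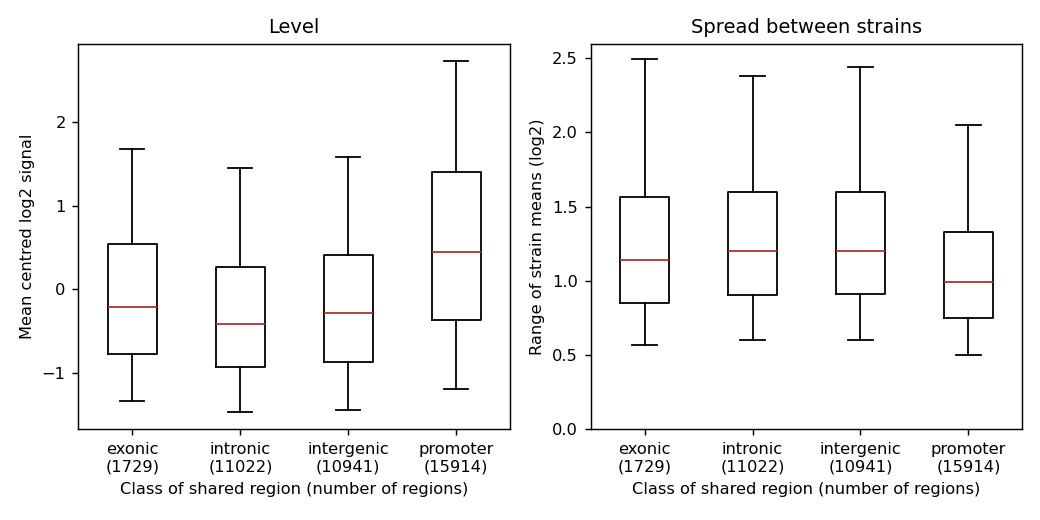
Mean centred log2 signal (left) and the range of the 8 strain means in log2 units (right) for 4 classes of shared region, with boxes at the quartiles and whiskers at the percentiles 5 and 95. Exonic regions had a median level of −0.21 and a median range of 1.14, near intronic and intergenic regions and apart from promoters at 0.45 and 1.00.

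The first comparison asked whether accessibility at these regions differed between the 8 strains. It did for 685 of 1729 exonic regions (39.6%) by limma's moderated F test with sex as a covariate, at an adjusted p under 0.05 over all regions, where 34.9% of all 42427 shared regions were called. The share was 40.7% of intronic, 40.9% of intergenic and 27.9% of promoter regions, so the exonic share was near that of other distal regions. Among called regions the highest and lowest strain mean differed by a median of 1.64 log2 units (quartiles 1.35 and 2.03), a 3.12-fold difference, and 180 of them differed by 2 log2 units or more. The number of exonic regions with a strain effect was 339 without both CAST samples. That refit ran over all shared regions, and whether the shift was particular to exonic regions was not examined.

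Where the summit lay went with small differences in these shares. Called regions were 35.2% of those with the summit in coding sequence, 39.2% in a 3′ UTR and 41.2% in an intron. By share of exon, they were 44.8% of regions with under 10% exon and 36.6% of regions that were exon throughout. The differences between these groups of regions were not tested.

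**Figure D2:**
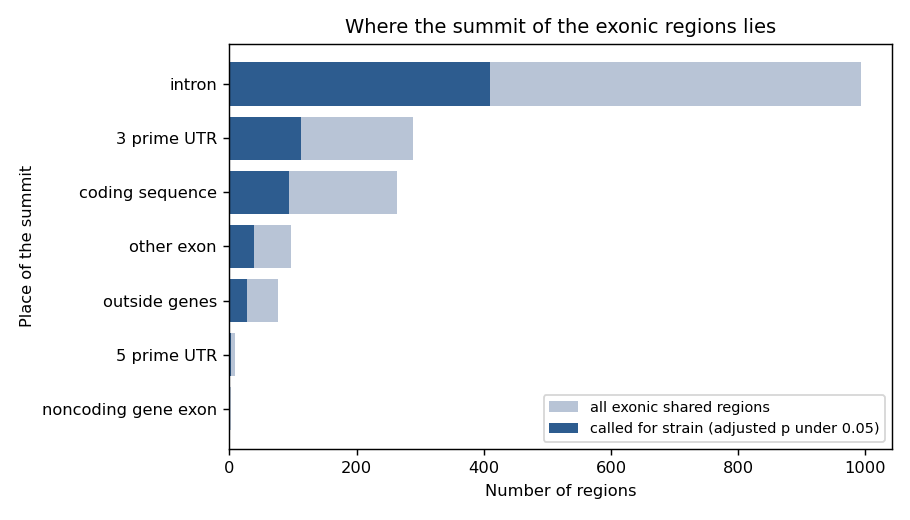
The number of exonic shared regions (x axis) by the place of their summit (y axis), with the part called for strain in dark blue. Introns hold 993 of the 1729 summits, against 264 in coding sequence and 288 in a 3′ UTR.

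CAST was the strain most often at an extreme. Of the 685 called regions it had the lowest mean in 176 and the highest in 140, the largest count of the 8 strains in each direction. PWK was lowest in 118 and highest in 87, WSB lowest in 61 and highest in 112, and AJ lowest in 83 and highest in 93. B6, the strain of the reference genome to which all reads were aligned, was lowest in 39 and highest in 66, and the part of read mapping in these counts was not tested. Nor was the part of the requirement of a peak in every sample, which limits how low a strain can be. Measured against all shared regions that were called, CAST took 20.4% of the highest places against 15.1%, and 25.7% of the lowest against 30.1%. In the same order, PWK took 12.7% against 15.2% and 17.2% against 13.4%, and WSB 16.4% against 11.5% and 8.91% against 10.5%. AJ took 13.6% against 17.5% and 12.1% against 11.8%, and B6 9.64% against 9.78% and 5.69% against 6.76%. The shares of 129, NOD and NZO ranged from 5.99% to 11.2% in either direction.

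**Figure D3:**
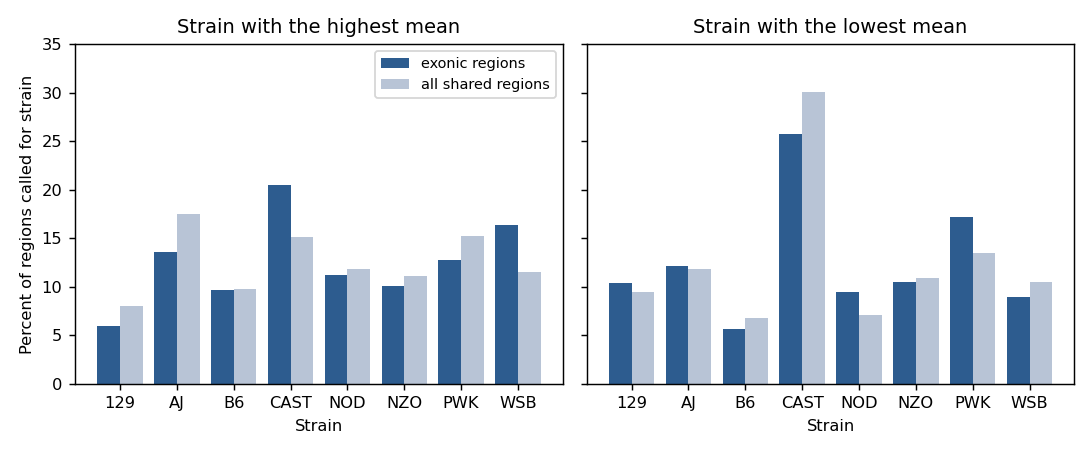
Percent of regions called for strain in which each strain had the highest (left) or the lowest (right) mean, for exonic regions (dark) and all shared regions (light). CAST is the tallest dark bar in both panels, at 20.4% and 25.7%.

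A stricter view takes strains whose 2 samples both lay outside the range of the other 14. Both samples of a strain were above all others in 435 exonic regions (25.2%, against 21.0% of all shared regions) and below all others in 441 (25.5%, against 25.4%). CAST accounted for 144 of the former and 140 of the latter. WSB accounted for 72 and 37, PWK for 50 and 66 and AJ for 57 and 62. Measured against all shared regions set apart in this way, CAST took 33.1% of the former against 22.6%, and 31.7% of the latter against 33.2%. WSB took 16.6% against 11.5% and 8.39% against 14.3%. PWK took 11.5% against 15.8% and 14.97% against 12.5%, and AJ 13.1% against 16.9% and 14.1% against 13.4%. The remaining strains had 21 to 40 regions in a direction.

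The widest strain range was at Adgrv1, an adhesion G protein-coupled receptor of very large size (chr13:81505355-81506528, minus strand, summit in the 3′ UTR of a short transcript). The scaled signals, female then male, were 2.28 and 2.48 in 129, 4.65 and 4.27 in AJ, 0.155 and 0.120 in B6, 0.248 and 0.316 in CAST, 3.67 and 3.95 in NOD, 1.80 and 1.04 in NZO, 1.00 and 0.531 in PWK and 3.58 and 3.31 in WSB. AJ, NOD and WSB were high, 129 and NZO intermediate, and B6 and CAST both low without overlap with the rest. AJ was 30.0-fold above B6, the lowest strain, on the log2(signal + 1) scale that all folds use (range 4.90 log2 units, adjusted p = 3.22e-06). Here the reference strain itself was at the bottom.

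At Itih2, a heavy chain of the inter-alpha-trypsin inhibitor that binds hyaluronan (chr2:10093767-10095799, last exon, summit past the gene), the signals were 4.86 and 6.01 in 129, 7.25 and 6.95 in AJ, 5.46 and 6.00 in B6, 0.333 and 0.287 in CAST, 6.05 and 6.06 in NOD, 5.53 and 4.69 in NZO, 2.85 and 2.81 in PWK and 4.96 and 4.88 in WSB. CAST lay far below every other sample, PWK was next with 2.85 and 2.81, and the remaining strains were within 4.69 to 7.25. AJ exceeded CAST 22.2-fold (adjusted p = 1.62e-06).

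At Samd12, a gene for a sterile alpha motif protein (chr15:53718698-53719884), the signals were 1.66 and 2.55 in 129, 0.554 and 0.327 in AJ, 3.44 and 4.58 in B6, 0.181 and 0.206 in CAST, 2.94 and 4.06 in NOD, 2.62 and 0.727 in NZO, 0.242 and 0.219 in PWK and 3.37 and 3.26 in WSB. CAST, PWK and AJ were low, B6 was highest and the NZO samples were apart from each other (adjusted p = 6.48e-05, 19.7-fold between B6 and CAST). At Cblb, a ubiquitin ligase that restrains receptor signalling (chr16:52134408-52135997, exon 6 of 18), the signals were 0.966 and 0.783 in 129, 1.66 and 0.764 in AJ, 0.917 and 1.49 in B6, 0.114 and 0.169 in CAST, 1.40 and 1.74 in NOD, 1.38 and 1.13 in NZO, 2.81 and 2.97 in PWK and 2.08 and 1.99 in WSB. There CAST alone was low and PWK was highest, a 19.4-fold difference between a pair of wild-derived strains (adjusted p = 0.000109).

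Aox1, an aldehyde oxidase of drug and retinal metabolism (chr1:58055405-58057199, exon 8 of 35), showed the same extremes. The PWK samples had 5.21 and 4.81, the CAST samples 0.295 and 0.250 and the other strains 0.905 to 2.92 (17.7-fold, adjusted p = 1.52e-05). At Ssx2ip, a centrosome and cell junction protein (chr3:146426052-146427399, exon 6 of 14), the signals were 0.50 and 0.478 in 129, 2.95 and 3.71 in AJ, 0.595 and 0.470 in B6, 0.267 and 0.353 in CAST, 5.15 and 5.46 in NOD, 0.531 and 0.273 in NZO, 0.387 and 0.719 in PWK and 2.70 and 3.32 in WSB. NOD, AJ and WSB formed a high set and the other 5 strains a low one, from 0.267 to 0.719, with no overlap (16.8-fold between NOD and CAST, adjusted p = 1.29e-05).

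The last of the widest ranges were at Prrc1 (chr18:57386400-57387534, in an exon of a noncoding transcript) and at Adamtsl1, a secreted matrix protein of the ADAMTS-like family (chr4:86413511-86414706, exon 23 of 28). At Prrc1 the WSB samples had 2.79 and 3.15, the CAST samples 0.152 and 0.125, the PWK samples 0.516 and 0.281 and the classical strains 0.953 to 3.04 (adjusted p = 3.41e-05). At Adamtsl1 the B6 samples had 3.6 and 5.10, the CAST samples 0.295 and 0.272 and the other strains 0.603 to 4.42 (adjusted p = 6.25e-05). CAST was the lowest strain at 7 of these 8 regions, and all 8 calls held in each of the 16 fits that left out 1 sample. Every region needed a peak in all 16 samples, which limits how low a signal can be. The medians that scale the signals were 105 and 136 in the CAST samples and 32 in the PWK male. That limit may therefore differ between samples in scaled units, and its part in these ranges was not tested. The 8 regions were named for the width of their range, so their folds are the upper end of the 685.

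**Figure D4:**
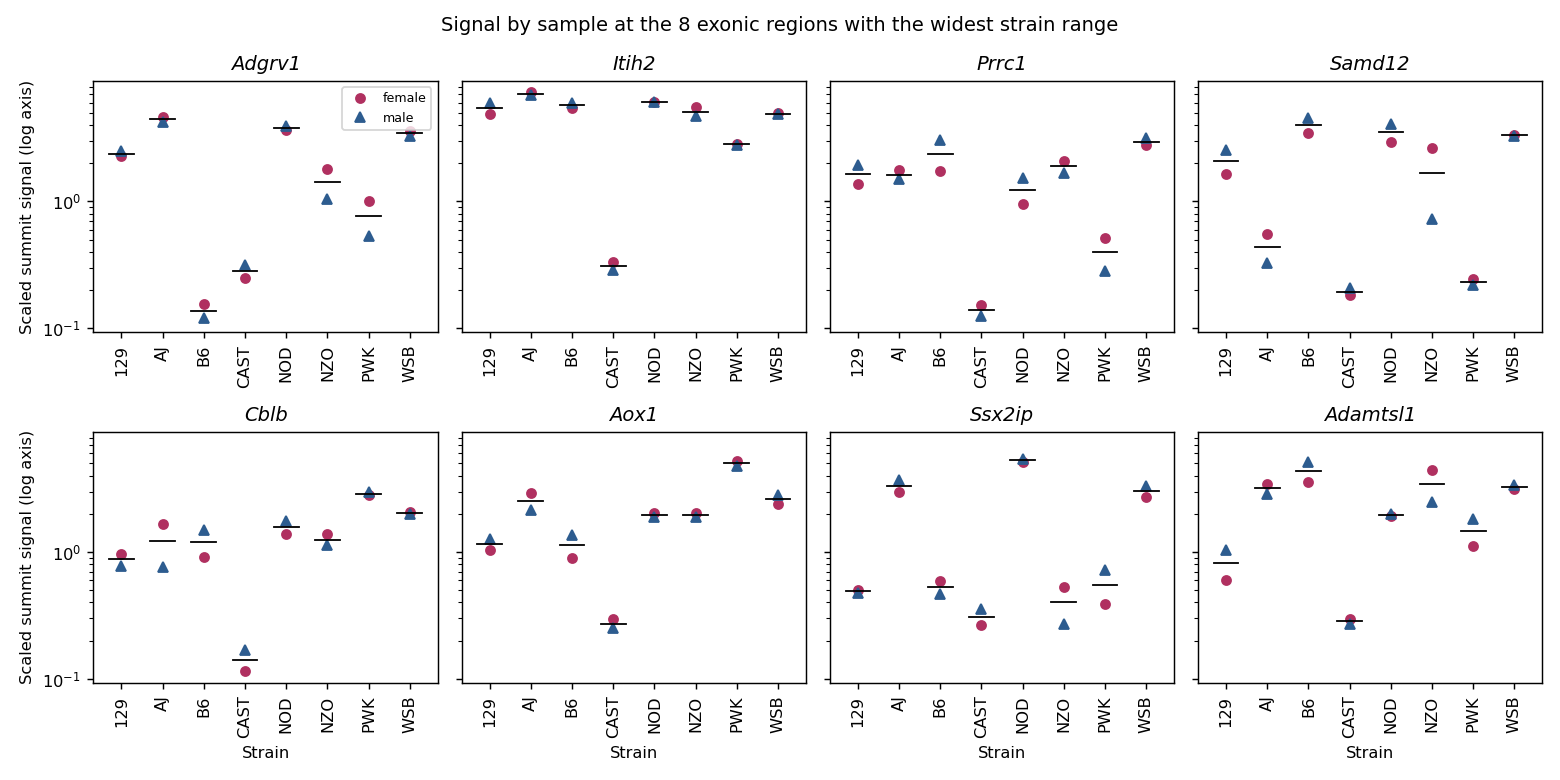
Scaled summit signal (log axis, 1 being the sample's median over all shared regions) by strain at the 8 exonic regions with the widest strain range, with circles for females, triangles for males and a bar at the mean of both. The samples of a strain lie close together in most panels, which follows in part from the choice of regions. They were called by a test against the spread within strains, and both samples of the highest strain had to lie above both of the lowest. CAST is lowest at every gene but Adgrv1, where B6 is.

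Single strains stood above all others at regions of varied genes. In CAST the widest gap was at Ankrd44, an ankyrin repeat protein (chr1:54742667-54743599), where both CAST samples were at 3.44 and 3.74 and the other 14 at 0.218 to 0.969 (adjusted p = 0.000404). In PWK it was at Dpyd, the dihydropyrimidine dehydrogenase that starts pyrimidine breakdown (chr3:119314400-119315199, summit in coding exon 20 of 23), with 2.9 and 1.94 against 0.136 to 0.724 (adjusted p = 0.000356). WSB stood out at Fam129a (chr1:151721400-151722240, 3′ UTR), with 0.991 and 1.34 against 0.182 to 0.418 (adjusted p = 0.000184). The windows of Ankrd44 and Dpyd are those printed above with the most coding sequence.

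Among the classical strains, the NZO samples had 4.07 and 2.35 at Rufy3, a gene for a protein of vesicle transport, against 0.259 to 1.16 elsewhere (chr5:88629107-88631805, adjusted p = 0.000382). The B6 samples had 4.67 and 5.24 past the last exon of Nanog, a factor of pluripotent cells, against 0.406 to 3.43 (chr6:122714045-122715799, adjusted p = 1.29e-05), and there CAST and PWK were at 0.406 to 0.645. The AJ samples had 2.49 and 2.53 at Col24a1, a fibrillar collagen, against 0.221 to 1.62 (chr3:145356625-145357754, adjusted p = 5.97e-06). NOD was highest at Ssx2ip, given above. For 129 the gap was small, 0.741 and 0.681 against 0.193 to 0.547 at Ece1, the endothelin-converting enzyme, and this region was not called (adjusted p = 0.0681).

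In the other direction, the PWK samples had 0.548 and 0.281 at Lifr, the receptor of leukaemia inhibitory factor, against 1.67 to 4.63 in the other 14 (chr15:7193961-7195728, wholly 3′ UTR, adjusted p = 0.000205). The WSB samples had 0.472 and 0.659 at Ahi1, a protein of the primary cilium, against 1.64 to 2.62 (chr10:20966020-20966550, adjusted p = 0.000724), a region that overlapped coding sequence by 2 bases. The NOD samples had 0.314 and 0.427 at Gtf2a1, a subunit of the general transcription factor TFIIA, against 0.945 to 1.47 (chr12:91562800-91564568, adjusted p = 0.00136). By the rule that named these regions, the other 14 samples all lay above the low strain.

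Smaller downward gaps marked the remaining classical strains. NZO had 0.309 and 0.236 at Sphkap, an anchoring protein of protein kinase A, against 0.451 to 1.01 (adjusted p = 0.00791), and AJ had 0.323 and 0.164 at Sptlc1, a subunit of serine palmitoyltransferase, against 0.467 to 0.849 (adjusted p = 0.0118). At Lrp1b, a receptor of the LDL receptor family, 129 had 0.569 and 1.03 against 1.78 to 5.54 (adjusted p = 0.0423). The Lrp1b call held in 8 of the 16 fits with 1 sample left out, being lost without either sample of 129, CAST, NOD or WSB, and the Sptlc1 call was lost without the AJ male. CAST was lowest by the widest gap at Itih2 and B6 at Adgrv1, given above.

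At the stable end, the range of strain means was 0.20 log2 units at Pde4a, a cyclic AMP phosphodiesterase (chr9:21204369-21205276), 0.20 at Myh14, a nonmuscle myosin heavy chain (chr7:44655600-44655799), and 0.22 at Ivns1abp (chr1:151352917-151354481). Single samples at Pde4a still ran from 0.391 to 0.983, both values being 129 samples. Small ranges of means therefore did not mean like values in every sample. None of the 3 was called for strain, with adjusted p of 0.999, 0.997 and 0.999, and the smallest range among all exonic regions was that of Pde4a against a median of 1.14.

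Base composition and short motifs placed exonic regions beside other distal regions. The 300-base windows had a median GC content of 47.7% and an observed over expected CpG ratio of 0.26, against 46.0% and 0.22 in intronic regions and 57.7% and 0.61 at promoters. Windows with the summit in coding sequence reached 51.0% GC. The SP1 letters GGGCGG, searched like all motifs on both strands, occurred in 9.02% of exonic windows, 5.63% of intronic and 46.6% of promoter windows. None of the 11 strings contains another, and a match is a string of letters in the reference strain that was not tested as a binding site.

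CTCF letters showed the widest split in strain calls of the 8 motifs plotted. The string CCANNAGNNGGC occurred in 257 of 1729 exonic windows (14.9%), against 10.8% of intronic, 15.4% of intergenic and 11.1% of all shared windows. Exonic regions with the string were called for strain in 22.6% of cases and those without it in 42.6%, and over all shared regions the shares were 26.7% and 36.0%. They were 28.8% and 42.2% in intronic and 28.8% and 43.1% in intergenic regions, so other distal regions showed a split in the same direction. The AP-1 string TGANTCA went the other way. It occurred in 16.8% of exonic windows and in 20.7% of intronic ones, and regions with it were called in 50.3% of cases against 37.5% without it. The same shares were 46.7% and 39.1% in intronic regions and 44.3% and 33.3% over all shared regions. Median levels with and without the strings were −0.27 and −0.20 for CTCF and 0.09 and −0.26 for AP-1.

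Letters of islet factors were found at similar shares in the distal classes. In exonic, intronic and intergenic windows the NEUROD1 string CAGATGG occurred in 12.8%, 12.0% and 12.2%, the FOXA string TGTTTAC in 10.2%, 11% and 9.90%, and the MAF string TGCTGAC in 8.96%, 7.54% and 7.72%. The RFX string GTTGCCA occurred in 6.94% of exonic windows and the PDX1 string CTAATTA in 4.11%, and in 1.14% where the summit was in coding sequence. Of the windows printed above, St3gal6 held the AP-1 string, Ankrd44 the RFX string and Samd12 the FOXA string. CRE (TGACGTCA) occurred in 1.04% of exonic windows, and the strings of NFI (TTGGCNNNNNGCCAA) and HNF1 (GTTAATNATTAAC) in 1 and 2 windows.

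**Figure D5:**
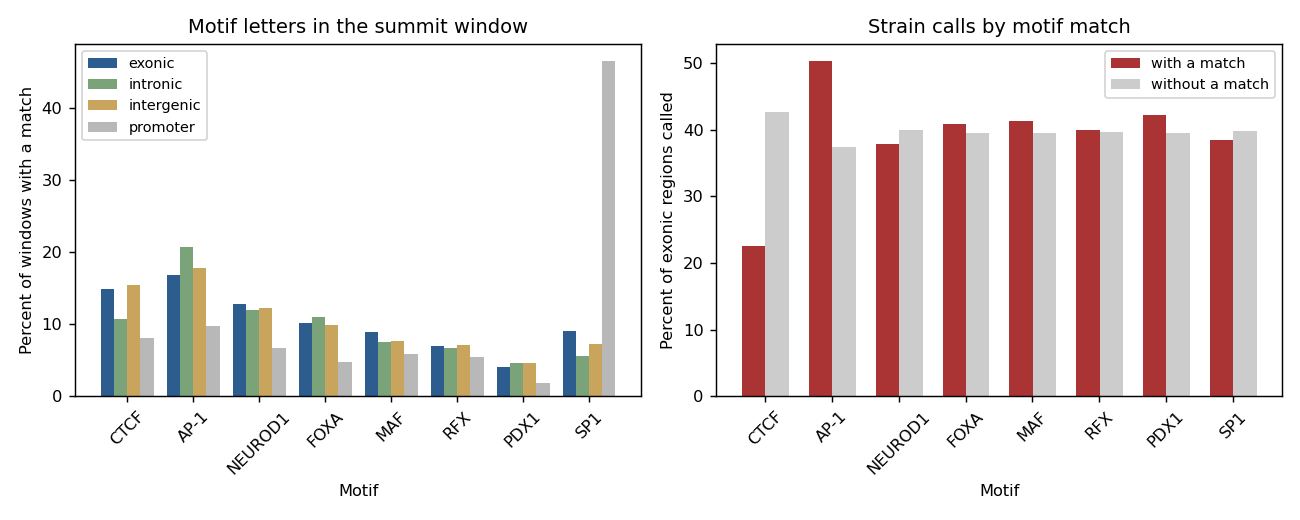
Percent of 300-base summit windows holding each motif string by class of shared region (left), and percent of exonic regions called for strain with and without the string (right). Exonic regions with the CTCF string were called in 22.6% of cases and those without it in 42.6%, and for AP-1 the shares were 50.3% and 37.5%.

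The next comparison set the 3 wild-derived strains against the 5 classical ones, on the 8 strain means. None of the 1729 exonic regions passed an adjusted p of 0.05 in limma, where 0.0330% of all shared regions did. An unadjusted p under 0.05 was found for 235 of them, beside 5187 of all 42427 shared regions. The smallest p was at Hipk3, a homeodomain-interacting protein kinase (chr2:104471554-104472688), and its signals were 0.648 to 1.59 in the 6 wild-derived samples and 0.277 to 0.518 in the 10 classical ones (difference 1.59 ± 0.25 log2 units (SE), adjusted p = 0.0842). The groups did not overlap.

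Cpe encodes carboxypeptidase E, which trims the intermediates of insulin and other prohormones in the secretory granule. Its region by exon 4 of 9 (chr8:64610675-64612973, summit intronic) had signals of 0.603 and 0.435 in 129, 0.415 and 0.382 in AJ, 0.512 and 0.675 in B6, 2.11 and 2.47 in CAST, 0.465 and 0.451 in NOD, 0.580 and 0.473 in NZO, 2.66 and 2.28 in PWK and 0.698 and 0.784 in WSB. CAST and PWK stood together at the top and WSB, at 0.698 and 0.784, was just above the classical range of 0.382 to 0.675 (difference 1.68 ± 0.35 log2 units (SE), adjusted p = 0.140). Itpk1, an inositol phosphate kinase, had signals of 1.25 to 3.18 in the 6 wild-derived samples and 0.709 to 1.40 in the 10 classical ones, which overlapped (difference 1.21 ± 0.27 log2 units (SE), adjusted p = 0.158). Sesn1, a sestrin of the stress response, had 0.594 to 1.47 in the 6 wild-derived samples and 0.273 to 1.16 in the 10 classical ones, with the NZO male at 1.16 alone above the other classical samples (difference 1.13 ± 0.26 log2 units (SE), adjusted p = 0.158).

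Regions lower in the wild-derived strains included Phyh, the peroxisomal enzyme that starts the breakdown of phytanic acid (chr2:4922131-4923206). Its signals were 3.22 and 3.28 in 129, 2.57 and 2.87 in AJ, 3.44 and 2.35 in B6, 0.429 and 0.478 in CAST, 2.67 and 2.9 in NOD, 3.26 and 2.85 in NZO, 0.323 and 0.50 in PWK and 1.58 and 1.59 in WSB. CAST and PWK were lowest, WSB was between, and the classical strains lay at 2.35 to 3.44 without overlap (difference −2.11 ± 0.37 log2 units (SE), adjusted p = 0.113). St3gal6, a sialyltransferase, had 0.719 to 1.44 in the 6 wild-derived samples and 1.79 to 3.18 in the 10 classical ones (difference −1.23 ± 0.23 log2 units (SE), adjusted p = 0.115). The groups were again apart.

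At 9130401M01Rik the values were 0.0952 to 0.438 in the 6 wild-derived samples and 0.309 to 1.20 in the 10 classical ones (difference −1.74 ± 0.31 log2 units (SE), adjusted p = 0.113). At Hps3, a subunit of a complex that builds lysosome-related organelles, they were 0.159 to 0.559 in the 6 wild-derived samples and 0.534 to 1.16 in the 10 classical ones (difference −1.48 ± 0.29 log2 units (SE), adjusted p = 0.126). The former groups overlapped through the PWK male and the NZO male, and the latter through the CAST male. All 8 regions were named for a small p in this comparison. Without WSB, 22 exonic regions were called (1.27%, against 0.825% of all shared regions), 9 of them higher in CAST and PWK.

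Between the sexes, no exonic region was called in limma with strain as a covariate, where 0.00943% of all shared regions were. An unadjusted p under 0.05 was found for 77 of 1729, beside 1726 of all 42427 shared regions. All exonic regions had adjusted p of 0.999 or above. The smallest p was at Bptf, a subunit of a nucleosome remodelling complex (chr11:107061683-107062751), with signals of 0.532 to 2.00 (median 0.864) in the 8 females and 0.312 to 1.34 (median 0.562) in the 8 males, a female minus male difference of 0.57 ± 0.13 log2 units (SE). Females were higher in 7 of 8 strains. At Depdc5, a brake on nutrient signalling to mTOR (chr5:32927535-32928296, coding exon 25 of 43), signals were 0.462 to 1.08 (median 0.858) in the 8 females and 0.327 to 0.875 (median 0.622) in the 8 males, a difference of 0.47 ± 0.13 log2 units (SE), with females higher in 8 of 8 strains. The ranges overlapped at both regions.

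In the other direction, a second Adgrv1 region (chr13:81155154-81155802) had 0.613 to 1.08 (median 0.815) in the 8 females and 0.818 to 1.76 (median 1.15) in the 8 males, a difference of −0.50 ± 0.12 log2 units (SE), with males higher in all 8 strains. Kcnab1, a potassium channel subunit (chr3:65319358-65319927, coding exon 8 of 14), had 0.292 to 0.556 (median 0.383) in the 8 females and 0.455 to 0.750 (median 0.556) in the 8 males, a difference of −0.55 ± 0.14 log2 units (SE), with males higher in 7 of 8 strains. These 4 regions were named for their p, and each failed the correction.

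Genes of islet function were among the hosts. Of 22 hormone and granule genes 3 held 4 regions, of which 2 were called for strain (50.0%, against 34.9% of all shared regions). Slc30a8, the zinc transporter ZnT8 of insulin granules, held a strong region by exon 3 of 8 (chr15:52315200-52317346), with 2.81 to 9.18 over the 16 samples and a median of 6.33. A weaker region by its last exon (chr15:52331548-52335599) ran from 0.162 to 0.534. Neither was called (adjusted p = 0.144 and 0.111). The called regions were Cpe, given above (adjusted p for strain = 4.27e-05), and Ptprn2, the granule membrane protein phogrin (chr12:116842460-116843519). At Ptprn2 the PWK samples had 1.35 and 1.12, the AJ samples 0.538 and 0.309 and the other strains 0.436 to 1.22 (adjusted p = 0.00905).

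Of 44 islet transcription factor genes 8 held 9 regions, and 1 region was called (11.1%, against 34.9% of all shared regions). Their median strain range was 1.09 against 1.10 over all shared regions. The called region was at the last exon of Nkx2-2, a homeodomain factor of beta cell fate (chr2:147177652-147179979). There CAST had 1.21 and 0.787, B6 had 0.321 and 0.241 and the other strains ran from 0.345 to 1.07 (adjusted p = 0.0399). Regions at Zbtb20, a repressor of the zinc finger family, Meis1, a TALE homeodomain factor, and Etv1, an ETS factor, ran from 1.03 to 2.62, 0.812 to 2.67 and 0.691 to 2.36, with adjusted p of 0.210, 0.0598 and 0.0858. Rfx6, required for islet cell development, ran from 0.532 to 1.39 (adjusted p = 0.323). Summits were in coding sequence at Tshz1 and Bach2, with adjusted p of 0.0693 and 0.0729.

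Genes that couple glucose to hormone release held 12 regions in 11 of 48 genes, and 7 were called for strain, 58.3% against 34.9% of all shared regions. Ryr2, a calcium release channel of the endoplasmic reticulum (chr13:11709523-11710449), had 2.61 and 2.65 in WSB, 0.570 and 0.366 in NOD and 0.582 to 2.19 elsewhere (adjusted p = 0.00323). Among receptors, Gipr, for the incretin GIP (chr7:19157137-19158999, summit in the coding part of the last exon), had 2.34 and 2.03 in WSB and 0.969 and 1.04 in AJ (adjusted p = 0.0403). Gcgr, for glucagon (chr11:120538658-120540027, summit past the gene), had 2.06 and 1.74 in CAST and 0.615 and 0.600 in AJ (adjusted p = 0.0272). Cacna1d, the pore of an L-type calcium channel (chr14:30196110-30197199), had 2.51 and 2.73 in WSB and 1.22 and 0.836 in AJ (adjusted p = 0.0279).

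AJ was thus the lowest strain at both hormone receptors and at Cacna1d. The Gipr call held in 6 of the 16 fits that left out 1 sample, the Cacna1d call in 9 and the Gcgr call in 10, each being lost without the AJ male, either CAST sample or either NOD sample. Itpr1 and Itpr3, receptors for inositol trisphosphate, and Rims1, a scaffold of the release site with its summit in coding sequence, gave the other calls, with adjusted p of 0.0203, 0.0190 and 0.00208. The Itpr1 call was lost without the NOD male or either WSB sample. Rab27a, a granule docking GTPase, ran from 1.22 to 2.98 and Slc2a2, the glucose transporter GLUT2, from 0.372 to 1.04, with adjusted p of 0.110 and 0.113.

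Insulin and growth factor signalling genes held 7 regions in 7 of 26 genes, with 2 called (28.6%, against 34.9% of all shared regions). Igf2r, the receptor that clears IGF2 (chr17:12722600-12725615), had 2.00 and 1.90 in CAST, 0.744 and 0.744 in NOD and 0.764 to 2.16 elsewhere (adjusted p = 0.0328). Egfr, the epidermal growth factor receptor (chr11:16870885-16871710), had 2.45 and 3.07 in AJ and 1.35 and 1.69 in PWK (adjusted p = 0.0444), a call that held in 2 of the 16 fits with 1 sample left out, those without the NZO female or the NZO male. The Igf2r call held in 9. Regions at Pik3r1, Tsc1, Foxo3, Grb10 and Fgfr1 were not called.

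Cell surface and matrix genes (collagens, laminins, cadherins and others) held 26 regions in 21 of 163 genes and 11 were called (42.3%, against 34.9% of all shared regions). Zinc finger Zfp genes held 16 in 15 of 394 with 8 called (50.0%). Lamb1, a laminin chain, had a strong region centred on coding exon 19 of 33 (chr12:31301925-31304359), from 4.23 to 9.94 with a median of 6.50 (adjusted p = 0.0241). Chromatin regulators held 11 regions in 10 of 47 genes with 4 called (36.4%). Among them was Smarca2, an ATPase of the SWI/SNF complex, where CAST had 1.5 and 1.47 and B6 0.405 and 0.229 (adjusted p = 0.00446). Strong regions at Tet2, a DNA demethylating enzyme, and Chd7, a chromatin remodeller, ran from 2.38 to 5.73 and 2.87 to 5.58 and were not called. Both regions of Col24a1, by exons 9 and 13, were highest in AJ and lowest in CAST. No Hox gene held a region. The median strain range of the regions in these lists was 1.46 log2 units for hormone and granule genes, 1.24 for stimulus-secretion coupling, 1.14 for insulin signalling, 0.86 for chromatin regulators, 1.30 for cell surface and matrix genes and 1.35 for Zfp genes, beside 1.10 over all shared regions.

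Some genes held several regions with different strain patterns. Pkhd1, the cilium protein fibrocystin, and Adgrv1 held 7 each, and 3 were called in either gene, where 34.9% of all shared regions were called. At Pkhd1 the region of the last exon (chr1:20057795-20059325) was strong in all samples, from 4.40 to 11.9 (adjusted p = 0.0632). The regions by exon 61 (chr1:20116502-20118999) and exon 22 (chr1:20554075-20555319) were both lowest in PWK, with 0.661 and 0.969 at the former and 0.306 and 0.469 at the latter. The other strains were at 2.06 to 6.16 and 1.24 to 2.96 (adjusted p = 0.000271 and 0.000146). The third call, by exon 36, had CAST lowest.

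The Adgrv1 region with the 30.0-fold range had no counterpart in its gene. The other 6 regions differed between the highest and lowest strain by 1.82 to 7.49-fold, and B6 was lowest at none of them. Neb, the giant muscle protein nebulin, held 4 regions with 3 called. Its region by exon 10 (chr2:52319020-52319700) had 0.152 and 0.228 in CAST and 2.27 and 2.08 in WSB, and the region by exon 123 (chr2:52185092-52186399) had 0.194 and 0.188 in PWK and 1.21 and 1.11 in NZO (adjusted p = 0.000114 and 0.000753). Syne1 held 5 regions with 3 called, Cdk5rap2 and Dpyd held 4 each with 2 called in either, and Dst, Frmd4a, Itgav and D1Ertd622e held 4 each with none. These genes were singled out for holding 4 regions or more.

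Regions near the limits of the selection are given here by their values. The 3 regions just inside the distance limit, at Cd47, Mau2 and Synpo, lay 3002 to 3006 bases from a start site with median scaled signals of 3.72, 1.13 and 5.27. The 3 just outside lay 2996 to 3000 bases away with 0.423, 5.92 and 1.32. For width, the regions at Ranbp3 and Zfp984, of 4953 and 4944 bases, were inside the limit and had 1.17 and 0.364. Regions of 5000 to 5022 bases outside it had 0.566, 1.24 and 2.01. A further 400 regions met every criterion but were called in 15 of the 16 samples, and their median scaled signal was 0.439 against 0.884 in the 1729.

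Agreement between the sexes varied with strain. The strain lists filtered by the irreproducible discovery rate (IDR, an estimate of how likely a peak is not to be reproduced between the samples of a strain) covered 829 of the 1729 regions (47.9%) in all 8 strains at an IDR of 0.05, against 53.6% of all shared regions. The share was 38.8% of intronic, 43.1% of intergenic and 70.1% of promoter regions. By strain, 1685 exonic regions were covered in WSB and 1656 in CAST, but 1095 in NZO and 1226 in AJ. The median absolute difference between the female and male value was 0.17 log2 units in WSB and 0.18 in CAST, and 0.44 in NZO and 0.40 in PWK. Summits of the middle 12 of the 16 samples were placed alike in most regions, within 100 bases of each other in 1359 regions (78.6%). They were over 500 bases apart in 140 (8.10%). The measure leaves out the samples with the outermost summits, so a strain with its summit elsewhere can go unseen. Whether the strain values of a region come from the same site was not tested.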

How the data were processed

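ATAC-seq was profiled in 16 islet samples, 1 female and 1 male of each of 8 strains. Per the sources used here, the authors trimmed reads with cutadapt 2.0, aligned all of them to mm10 with Bowtie2 2.3.4.1, processed alignments with SAMtools and Picard 2.9.2, and took peaks from MOSAiCS with the FDR held at 0.05. Whether reads were shifted for the Tn5 cut is not given in the sources used here. The deposited summit signal of each peak is a whole number that the authors did not scale to depth, and what it counts is not given in the sources used here. The authors also deposited a −log10 p per peak and, for each strain, a −log10 irreproducible discovery rate between the sexes, which was filtered here at 0.05 because the lists hold peaks above it.

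Peaks were merged with Python 3.11.15 and annotated with GENCODE M21 on mm10, and sequences were read from the RefSeq GRCm38 genome. A region's signal was the highest summit signal in it. Strain, sex (female minus male) and strain class (wild-derived minus classical, on strain means) were tested with limma 3.58.1 on log2(signal + 1) centred on each sample's median, over all 42427 shared regions with Benjamini-Hochberg adjustment, after the scripts had been tested on simulated data. The study's own test was for read counts, and the signals are not stated to be that. Errors of differences are limma standard errors. Depth per sample was not used here, so the number of samples limits the precision.

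Named regions were the 5 of highest level, the 8 called regions with the widest strain range, the 4 with the smallest p in each direction for strain class and 2 for sex, the 3 with the smallest range, the region of widest gap for each strain in each direction, up to 6 members of each of 4 islet gene lists and regions beside the limits. The members and lists were chosen with earlier results of these data known. Genes with 4 or more regions, and list members beyond the 6 of highest level in a list, were named after their values were seen. Alternatives changed the pseudocount, centring, signal column, sample filter and annotation rule, or left out a sample or strain. Some of the regions beside the width limit and a sequence are not reported here.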

Additional observations from a re-analysis of the deposited data

Results flagged for a closer look

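Dixon's ratio was taken in 36 groups of samples. They covered the level and spread of the whole exonic set and the named regions of the strain class and sex comparisons. A sample lay far from the others of its group in 2 of the 36, where chance alone marks about 1 group in 20. Both were at named regions, and no group of the whole-set measures was marked. At Sesn1, by exon 2, the centred log2 signal of the NZO male was 0.22, while the other 9 classical samples lay between −1.81 and −0.96, a gap of 0.579 of the whole range. The NZO male's scaled signal there was 1.16, within the range of the wild-derived samples. At Depdc5, by exon 25, the AJ female was lowest of the 8 females at −1.09, the others lying between −0.32 and 0.10, a gap of 0.648 of the range. Its scaled signal was 0.462.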

How the results depend on the processing

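The number of exonic regions with a strain effect, 685, kept within 1.5 times under 27 of 33 alternatives, from 473 to 893. It was 1164 with no centring of the samples, 338 when regions called in at least 12 samples were tested with missing peaks at 0, 339 without the strain CAST, and 407 to 1044 when each sample was left out in turn. For the strain class comparison, where the count was 0, it was 3 with no centring, 1 without the strain PWK, 22 without the strain WSB, and 0 to 2 with a sample left out. The sex comparison gave 0 in all 31 alternatives. The number of members of the exonic set, 1729, was 74 when the peaks of every sample had to cover 50% of the region, 3581 when only the start of each gene counted as a TSS, 880 over 10 kb from a TSS, 657 with the summit in an exon and 979 with the more significant 50% of the peaks of each list, and between 1293 and 2253 under the other 19 alternatives. Of 1675 refits of the 51 named regions for strain, 115 lost a call and 58 gained one. The F test has no direction, so no reversal could be counted there. In the 260 refits for strain class and the 127 for sex, no direction reversed. The cause of the changed counts and calls was not tested. The sex comparison, with strain as a covariate, was itself within strains, and the labels give no replicate numbers for another pairing. List members beyond the 6 of highest level, such as Nkx2-2, Itpr3, Rims1, Lamb1 and Smarca2, were refitted with the rest, but their refits were not examined one by one. The same holds for regions of the genes with several that no naming rule took. The signals carry no read depth, so counting error could not be set beside the values.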
